A study of Homo sapiens with 10 samples.

Results

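The Toll-like receptors (TLRs) were described across 10 arrays of BEAS-2B, an immortalized human cell line from bronchial epithelium. The genes TLR1 to TLR10 make up the family in human. Of these 10 genes, 8 were represented by a transcript cluster, which is the set of probes that an array holds for a transcript, and the array measured 18355 named genes in all. TLR5 and TLR10 were not named in the annotation table and were not analysed here. The genes were taken by symbol, and each of the 8 had a single cluster. The family was picked because the level of TLR4 was known to differ between the Cr(VI) transformed and the control lines, so the values of TLR4 against control are given as a description with no test.

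TLRs are receptors in the cell membrane and in endosomes that bind conserved parts of microbes and some molecules from damaged host cells. Once bound, they recruit adaptor proteins such as MYD88 and TICAM1 through a TIR domain, and the signal passes through IRAK kinases and TRAF6 to NF-kB and interferon regulatory factors. In the airway epithelium this path drives the release of cytokines and chemokines that call in leukocytes.

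For the Cr_small and Cr_large groups, BEAS-2B cells had spent 30 days in 0.5 μM potassium chromate before they were plated in soft agar, and 3 small and 3 large colonies gave 3 lines each, which are together called the Cr lines. The control group held 3 lines from colonies that arose in soft agar without chromate, as the study describes them, and the parental BEAS-2B cells were measured on 1 array. Each line was the progeny of a single colony and was measured once, so p-values measure the spread between lines. No repeat of the exposure was described. The colony lines, controls included, had all passed through 3 weeks in soft agar before they were grown as monolayers. The treatment text of the labels gives the chromate exposure for every array, while the titles and cell type labels set the control and parental cells apart.

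All values are the log2 of RMA16 intensities, a scale on which a difference of 1 is a 2-fold difference. The medians of the 10 arrays lay between 5.82 and 5.90. A gene was called where limma's p, adjusted by the Benjamini-Hochberg method for all clusters of the array, was under 0.05. The keratins KRT8 (11.46 to 12.65) and KRT18 (11.19 to 12.31) of simple epithelium were high on every array. KRT19, another such keratin, was 5.79 to 10.07 in the Cr lines, 6.07 to 6.27 in control and 7.58 in parental cells. Its difference of 1.77 did not pass (limma adjusted p = 0.235). The epithelial adhesion genes EPCAM (4.83 to 5.71) and CDH1 (4.81 to 5.02) and the basal keratin KRT5 (5.44 to 5.54) were near background. Of 10 epithelial markers, 4 were higher in the Cr lines than in control (KRT7, KRT8, KRT18 and CLDN1) and 0 lower, while 5.33% of all clusters were higher. The summed level of these markers was 13.56 to 13.88 in Cr_small, 13.84 to 14.00 in Cr_large, 12.96 to 13.28 in control and 13.31 in parental cells. Whether this difference has a part in the results that follow was not tested. Of 11 leukocyte markers, 0 passed the limma test and 2 had an unadjusted p under 0.05, as had 5618 of all 18355 named genes. Their summed level was 9.11 to 9.29 in Cr_small, 9.22 to 9.52 in Cr_large, 9.11 in each control line and 9.09 in parental cells. Of these markers, 2 were above the background level described next, CD68 and TYROBP. CD68, a lysosomal gene of macrophages that other cells also express, had 7.90, 7.42 and 7.79 in Cr_small, 8.36, 8.43 and 7.67 in Cr_large, 7.43, 7.36 and 7.51 in control and 7.50 in parental cells. Its differences from control of 0.50 over the Cr lines (limma adjusted p = 0.128) and 0.72 in Cr_large (limma adjusted p = 0.0794) did not pass. PTPRC, the pan-leukocyte gene, was between 4.52 and 4.66 on all arrays. The part of the CD68 difference in the results was not tested. Of 8 fibroblast and mesenchymal markers, 0 passed in the Cr lines against control, where 11.0% of all clusters did, and 7 were above background in any group. Their summed level was 12.83 to 13.18 in Cr_small, 12.80 to 13.29 in Cr_large, 12.58 to 13.46 in control and 12.69 in parental cells. VIM (11.39 to 12.23) and COL1A1 (10.24 to 12.30) were high on every array.

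Probes differ in brightness, so the level of one gene was not set against that of another. Instead, each member was compared with 378 clusters of olfactory receptor genes, which bronchial epithelial cells are not known to use. The 95th percentile of these clusters was 5.49 in Cr_small, 5.53 in Cr_large, 5.46 in control and 5.45 in parental cells, and a group mean above it was called above background. By this measure 2 members were above background in Cr_small and in Cr_large (TLR4 and TLR9), 4 in control (TLR2, TLR3, TLR4 and TLR9) and 3 in parental cells (TLR3, TLR4 and TLR9). Taken against 23 clusters of bitter taste receptor genes, whose 95th percentile over the arrays was 5.96, 2 members were above background in any group, TLR4 and TLR9. A level above this mark does not by itself show expression, because probes differ in brightness. TYROBP, a leukocyte gene, was also above it at 6.54 to 6.85 on all 10 arrays. The TLR9 means were 5.99 in Cr_small, 6.13 in Cr_large, 5.92 in control and 6.12 in parental cells, so that of control was under 5.96. Its mean of 6.03 over the arrays was under that of the brightest olfactory (6.15) and taste receptor (6.7) clusters. In Cr_small, TLR4 was 7.67 in line 1, but 5.72 in line 2, under 5.96, and 6.09 in line 3, under 6.15. In RNA from whole cultures, fewer expressing cells and less RNA per cell cannot be told apart.

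**Figure D1:**
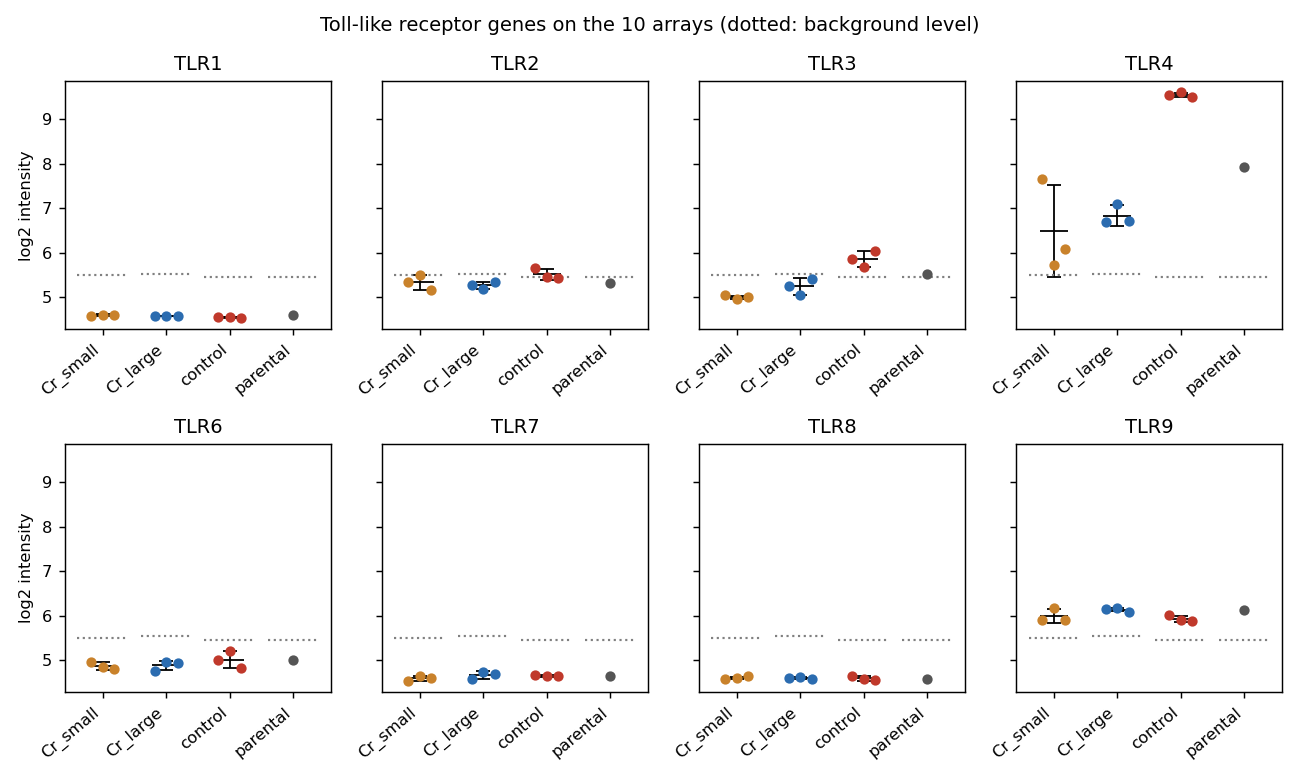
Log2 intensity of the 8 measured TLR genes on each array (points), by group, with the mean and SD of the 3 lines as bars and the background level of each group, the 95th percentile of olfactory receptor clusters, as a dotted line. TLR4 lay between 5.72 and 7.67 in the Cr lines against 9.51 to 9.61 in the control lines, TLR3 crossed the background level, and each of the other 6 genes varied by at most 0.49 over all arrays.

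TLR4 is the receptor for bacterial lipopolysaccharide, and it signals both from the cell surface through MYD88 and from endosomes through TICAM1. It lies on chromosome 9 (chr9:117704403-117724735, GRCh38.p14). Its levels were 7.67, 5.72 and 6.09 in Cr_small lines 1 to 3, 6.69, 7.10 and 6.72 in Cr_large lines 1 to 3, 9.54, 9.61 and 9.51 in control lines 1 to 3, and 7.92 in parental cells. All 6 Cr lines were below the parental cells, which were below all 3 control lines, so that no groups overlapped except Cr_small and Cr_large. Every Cr line was below every control line in 7.84% of all clusters, and TLR4 was picked with its difference known. The 3 Cr_small lines were the most spread, since line 1 lay 0.25 below the parental cells and line 2 lay 2.20 below them.

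The mean of TLR4 was 6.49 ± 1.03 in Cr_small, 6.84 ± 0.23 in Cr_large and 9.55 ± 0.05 in control (SD, n = 3 each). This made TLR4 8.32-fold lower in Cr_small and 6.56-fold lower in Cr_large than in control, with log2 differences of -3.06 and -2.71 (SE 0.44 each). Both differences use the same 3 control lines. Without Cr_small line 1, the difference of Cr_small from control was 12.5-fold. The difference was negative under every alternative that was run, which is no support for it, since TLR4 was picked with this difference known.

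Against the single parental array, for which there is no test, TLR4 was 2.68-fold lower in Cr_small and 2.11-fold lower in Cr_large, and 3.1-fold higher in control. The control lines were close together here, 1.59 to 1.69 above the parental level on the log2 scale, while the Cr_large lines were 0.81 to 1.23 below it. Of all 28869 clusters, 1.23% were at least 2-fold lower than parental in Cr_small (0.748% higher), 1.16% in Cr_large (0.672% higher) and 0.533% in control (0.592% higher). TLR4 was the 1 member past 2-fold in any of these comparisons. The colony lines thus lay on both sides of the cells they came from, and the distance between Cr and control lines was made of a level below parental in the Cr lines and a level above parental in the control lines.

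TLR3, the endosomal receptor for double-stranded RNA, signals through TICAM1 alone and lies on chromosome 4 (chr4:186069156-186088073). Its levels were 5.04, 4.97 and 5.0 in Cr_small lines 1 to 3, 5.26, 5.05 and 5.42 in Cr_large, 5.86, 5.68 and 6.04 in control and 5.52 in parental cells. The groups fell in the order seen for TLR4, with Cr_small lowest, then Cr_large, parental and control, and all 6 Cr lines were below all 3 control lines. Of all clusters, 7.84% had every Cr line below every control line and 8.85% had every Cr line above.

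TLR3 was lower in both Cr groups than in control, by 1.81-fold in Cr_small (log2 difference -0.86, SE 0.11, limma adjusted p = 0.0041) and by 1.53-fold in Cr_large (-0.62, SE 0.11, limma adjusted p = 0.0154). Over the 6 Cr lines together it was 1.67-fold lower (-0.74, SE 0.10, limma adjusted p = 0.00287). The means of 5.0 ± 0.04 in Cr_small and 5.24 ± 0.18 in Cr_large were under the background level of these groups, against 5.86 ± 0.18 in control (SD, n = 3 each). RMA16 adds a constant to each intensity that shrinks the folds of dim genes, and with that constant of 16 taken off, an alternative chosen after the data had been seen, TLR3 was 2.25-fold lower in the Cr lines. The call in Cr_large was lost by a small margin without control line 1 (limma adjusted p = 0.0535) or control line 3 (limma adjusted p = 0.0501), and with only Cr_large and control in the fit (limma adjusted p = 0.0501).

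Setting TLR4 aside, 1 of the other 7 members passed the test in the Cr lines against control, and this was TLR3 in each of the comparisons of the 6 Cr lines, of Cr_small and of Cr_large with control. In the table as a whole, 11.0% of clusters passed over the 6 Cr lines (5.72% lower and 5.33% higher), 8.26% in Cr_small (4.47% lower and 3.79% higher) and 7.44% in Cr_large (4.11% lower and 3.33% higher). A count of 1 in 7 is near this background, so the number of calls is no result about the family.

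The receptors of bacterial lipoproteins gave small differences. TLR2, which pairs with TLR1 or TLR6 at the cell surface, had levels of 5.34, 5.51 and 5.17 in Cr_small, 5.28, 5.19 and 5.35 in Cr_large, 5.66, 5.46 and 5.44 in control and 5.31 in parental cells. Of the 6 Cr lines, 5 were below all control lines, and the difference of -0.21 (SE 0.08) did not pass (limma adjusted p = 0.174). Its partners were under the background level in all groups. TLR1 ranged from 4.57 to 4.61 in the Cr lines against 4.54 to 4.56 in control, so every Cr line was above every control line, within a span of 0.07 over all arrays. TLR6 ranged from 4.75 to 4.96 in the Cr lines against 4.83 to 5.20 in control. Neither difference passed (limma adjusted p = 0.568 for TLR1 and 0.395 for TLR6). TLR1 and TLR6 are neighbours on chromosome 4 (chr4:38787569-38805644 and chr4:38822897-38868390), and TLR2 lies farther along it (chr4:153684280-153710637).

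The receptors of single-stranded RNA, TLR7 and TLR8, are neighbours on chromosome X (chrX:12867072-12890361 and chrX:12906620-12923169). Both were near the floor of the array, TLR7 at 4.53 to 4.74 in the Cr lines and 4.63 to 4.67 in control, and TLR8 at 4.58 to 4.63 in the Cr lines and 4.54 to 4.63 in control. Their differences of -0.02 and 0.02 did not pass (limma adjusted p = 0.867 and 0.86).

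TLR9, the endosomal receptor for DNA with unmethylated CpG, lies on chromosome 3 (chr3:52221080-52225645). Its levels were 5.90, 6.17 and 5.90 in Cr_small, 6.14, 6.16 and 6.09 in Cr_large, 6.01, 5.89 and 5.87 in control and 6.12 in parental cells. All 3 Cr_large lines were above all control lines, while the Cr_small lines overlapped them. The difference of Cr_large from control was 0.20 (SE 0.08) and did not pass (limma adjusted p = 0.191).

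Between the Cr groups, 0 of 28869 clusters passed the limma test in Cr_large against Cr_small (0.0%), and 1266 had an unadjusted p under 0.05. Of the 8 members, 0 passed, 0 had an unadjusted p under 0.05 and 0 did so by the methods' t-test. The intervals were wide for some genes. TLR4 was 6.84 in Cr_large and 6.49 in Cr_small, a difference of 0.34 with a 95% interval of -0.66 to 1.35, which includes a 2-fold difference. TLR3 was 5.24 in Cr_large and 5.0 in Cr_small, a difference of 0.24 with an interval of -0.02 to 0.49. TLR9 was 6.13 in Cr_large and 5.99 in Cr_small, with a difference of 0.14 and an interval of -0.05 to 0.32.

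The 250 bases in front of the gene start of TLR4 and TLR3, the members that were lower in the Cr lines, are printed here from RefSeq (GRCh38.p14, plus strand, 5′ to 3′), with matches to GAGGAA on either strand in capitals, so that the reverse strand shows as its complement. GAGGAA is the purine-rich core bound by PU.1, a factor of myeloid cells. The other motifs searched on both strands were TGANTCA (AP-1), TATAAA (the core promoter box bound by TBP), the NF-kB site and the interferon-stimulated response element, none of which shares a match with GAGGAA here.
TLR4 chr9:117704153-117704402: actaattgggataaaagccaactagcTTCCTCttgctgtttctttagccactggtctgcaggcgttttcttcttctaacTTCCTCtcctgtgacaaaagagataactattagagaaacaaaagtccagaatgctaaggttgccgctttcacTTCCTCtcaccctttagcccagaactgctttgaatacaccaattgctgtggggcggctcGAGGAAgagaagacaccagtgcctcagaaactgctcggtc
TLR3 chr4:186068906-186069155: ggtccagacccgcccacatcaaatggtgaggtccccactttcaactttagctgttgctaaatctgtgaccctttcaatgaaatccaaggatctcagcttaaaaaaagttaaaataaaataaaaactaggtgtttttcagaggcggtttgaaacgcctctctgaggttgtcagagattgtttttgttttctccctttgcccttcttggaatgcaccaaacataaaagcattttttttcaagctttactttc
The TLR4 stretch held GAGGAA 4 times, 224, 171, 99 and 40 bases before the gene start, and none of the other motifs. The stretch of TLR9 held GAGGAA 2 times and that of TLR6 held it 1 time, while those of TLR2 and TLR8 held none. TLR9 also had 1 AP-1 match and 1 TATA match. Of 35116 promoters of the same length, 23.6% held at least 1 GAGGAA and 0.0513% held 4 or more. The TLR3 stretch held none of the 5 motifs, and of all promoters 6.57% held TGANTCA, 10.7% TATAAA, 9.96% an NF-kB site and 0.347% an interferon-stimulated response element. TLR4 had 5 and TLR3 had 3 CG dinucleotides in this window, against a median of 11 over all promoters. A match is a run of letters and shows no binding, and no match says nothing of a factor's part.

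The genes beside each locus were described next, with up to 10 named genes on each side. Of the 20 genes beside TLR4, 0 passed limma's test and 6 had an unadjusted p under 0.05, and their median log2 difference between Cr lines and control was 0.00, against -2.89 for TLR4 itself. The lowest of them was TNC, the matrix protein tenascin C, at -0.94, and the highest was 0.40. The 7 of them with a mean level over 7 had a median of 0.09. Of the 20 genes beside TLR3, 4 were lower in the Cr lines and 0 higher. These were CFAP97 (-0.52), SNX25 (-0.53), UFSP2 (-0.52) and the cadherin gene FAT1 (-0.82), against -0.74 for TLR3. The 4 genes of the 20 with a mean over 7 had a median of -0.52, and 3 of these were lower. Beside TLR2, 4 of 20 were lower and 0 higher, beside TLR9 2 were lower and 0 higher, and beside TLR7 and TLR8 4 were higher and 1 lower. Around the dim genes TLR1 and TLR6, 8 of 20 neighbours were lower, the lowest being KLHL5 at -1.45, and 2 were higher. Neighbours with a mean over 7 had a median of -0.45 beside TLR2 and -0.37 beside TLR1 and TLR6. The same median was -0.21 beside TLR9 and 0.20 beside TLR7 and TLR8. Over all named genes, 1392 of 18355 were lower and 1286 higher, and 5618 had an unadjusted p under 0.05.

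**Figure D2:**
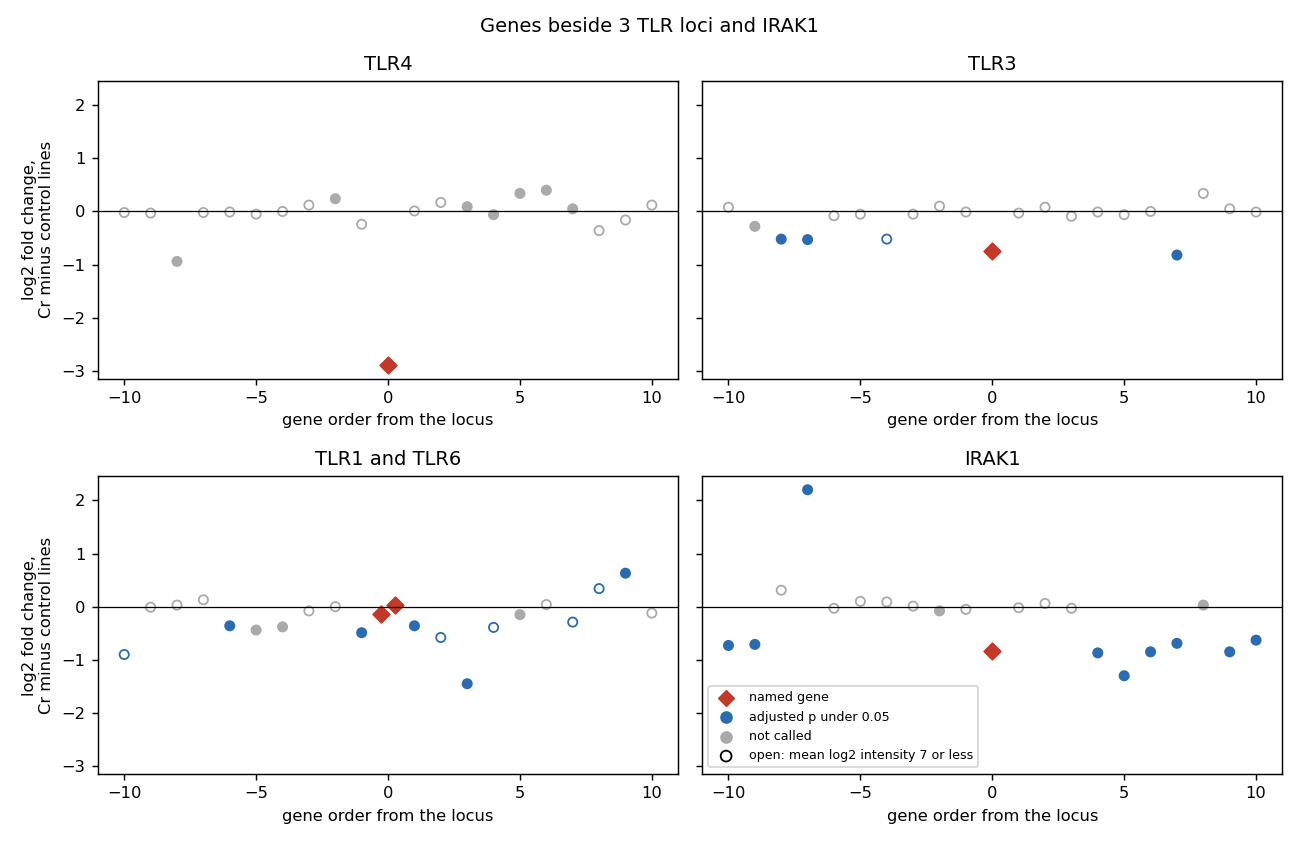
Log2 difference of Cr minus control lines (vertical axis) for up to 10 genes on each side of a locus, in gene order (horizontal axis), for TLR4, TLR3, TLR1 with TLR6, and IRAK1. The red diamonds are the named genes, blue points passed limma's test at an adjusted p under 0.05, grey points did not, and open points have a mean level of 7 or less. No neighbour of TLR4 passed, while 8 neighbours of IRAK1 were lower.

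The genes most like TLR4 over the 10 arrays were taken by the root mean square difference from it after each gene was centred on its mean. They were BGN (0.51), CPE (0.53), CRISPLD2 (0.53), PMEPA1 (0.55) and AMIGO2 (0.55), each on another chromosome than TLR4. BGN encodes biglycan, a matrix proteoglycan, CPE is a peptide-processing carboxypeptidase and AMIGO2 is an adhesion protein of the cell surface. AMIGO2 shared the spread of TLR4 among the Cr_small lines, with 8.78, 6.58 and 7.98 in Cr_small lines 1 to 3, 7.64, 8.23 and 7.85 in Cr_large, 10.10, 10.09 and 10.14 in control and 7.55 in parental cells. In both genes Cr_small line 1 was the highest Cr line and line 2 the lowest. This was also so in CPE, with 8.27, 6.90 and 8.14 in Cr_small lines 1 to 3 and 7.38 to 7.72 in Cr_large. CPE was 9.71 to 10.02 in control and 8.90 in parental cells. AMIGO2 and TLR4 differed in the parental cells, where AMIGO2 was under 5 of the 6 Cr lines and TLR4, like CPE, was above all 6. PMEPA1 was 6.17 to 6.95 in the Cr lines and 8.93 to 9.32 in control, with 6.97 in parental cells, just above the highest Cr line. These genes were chosen for this likeness, so no test applies to it.

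**Figure D3:**
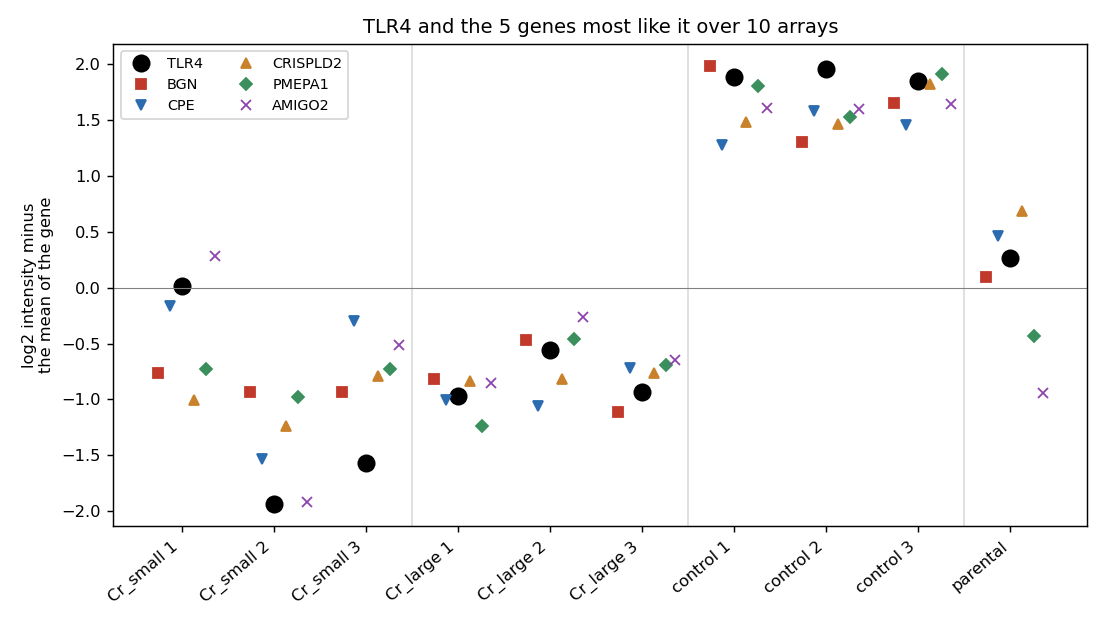
Log2 intensity minus the mean of each gene over the 10 arrays (vertical axis) for TLR4 (large black points) and the 5 genes with the smallest root mean square difference from it, array by array. All 6 genes were high in the 3 control lines, and they spread most in the parental cells, where AMIGO2 was low and CRISPLD2 was high.

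The 9 lists that follow hold 116 genes, called pathway genes here. They include other receptors with a TIR domain and sensors of other families beside the TLR pathway itself. Of these 116 genes, 105 had a named cluster. In the Cr lines against control, 6 were higher and 11 lower, which is 16.2% of those measured, with a median log2 difference of -0.01. Of all 18355 named genes, 14.6% passed and the median was 0.03. The share of pathway genes that passed was thus near that of all genes. In Cr_small, 3 were higher and 8 lower, which is 10.5% of those measured against 11.0% of all named genes. In Cr_large, 5 were higher and 7 lower, which is 11.4% against 9.88%. The count over the 6 Cr lines was 10 without control line 1 and 9 without control line 3. The share of all genes that passed without these lines is not given here.

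The proteins that carry ligands to the receptors, or fold and move them, gave 0 of 10 calls. Of these, 2 had an unadjusted p under 0.05, as had 5618 of all 18355 named genes. CD14, which hands lipopolysaccharide to TLR4, had levels of 5.66 to 6.82 in the Cr lines and 6.31 to 6.76 in control, with a difference of -0.29 (limma adjusted p = 0.511). LY96, which encodes MD-2, the subunit through which TLR4 holds lipopolysaccharide, was at 4.54 to 4.64 on all arrays, under the background level. HSP90B1, the chaperone of TLRs, had 12.23 to 12.57 in the Cr lines against 12.10 to 12.16 in control, with no overlap, and its difference of 0.24 did not pass (limma adjusted p = 0.0878). UNC93B1, which moves TLR3, TLR7 and TLR9 to endosomes, and the chaperone CNPY3 had differences of 0.20 (limma adjusted p = 0.118) and 0.10 (limma adjusted p = 0.368).

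Of 4 TIR adaptors, 1 was higher. SARM1, an adaptor that is an NAD-cleaving enzyme and can hold back TICAM1, had 7.37, 7.03 and 7.28 in Cr_small, 7.17, 7.16 and 6.92 in Cr_large, 6.75, 5.80 and 6.53 in control and 6.69 in parental cells. It was 1.73-fold higher over the Cr lines (limma adjusted p = 0.0379). All 6 Cr lines were above the control lines, but the call was lost when any of 5 lines was left out, Cr_small 1, Cr_small 3, Cr_large 1, Cr_large 2 or control 3, with adjusted p of 0.0684 to 0.084, and by the methods' t-test after Benjamini-Hochberg (0.0712). MYD88, the adaptor of most TLRs, was at 7.48 to 8.04 in the Cr lines and 7.83 to 8.17 in control (difference -0.22, limma adjusted p = 0.371). TICAM1, the adaptor of TLR3, had a difference of -0.10 (limma adjusted p = 0.434), and TIRAP, which brings MYD88 to TLR2 and TLR4, was under the background level at 4.88 to 5.10 on all arrays (0.04, limma adjusted p = 0.687).

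Among 16 kinases, ligases and their partners, 2 were lower and 1 higher. IRAK1, the kinase that MYD88 recruits, had 9.22, 9.10 and 9.17 in Cr_small, 9.07, 9.29 and 9.01 in Cr_large, 10.07, 9.74 and 10.10 in control and 8.86 in parental cells. It was 1.77-fold lower over the Cr lines (-0.83, SE 0.10, limma adjusted p = 0.00178). Its lowest level was that of the parental cells, so here the Cr lines were nearer to parental than the control lines were. IKBKG, a subunit of the IkB kinase complex that has a near-identical copy in the genome, was lower by 0.32 on the log2 scale (limma adjusted p = 0.0212). TAB3, which activates the kinase TAK1, was 1.45-fold higher (limma adjusted p = 0.0115). Without control line 1 or control line 3 the call of IKBKG was lost (adjusted p of 0.0679 and 0.0935).

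IRAK1 lies at Xq28 (chrX:154010507-154019902). Of the 20 genes beside it, 8 were lower and 1 higher, L1CAM, an adhesion gene, at 2.20. Of the 20 beside IKBKG, 15 were lower and 0 higher, and of those beside BGN, 6 were lower and 1 higher. The 20 beside BGN had a median of -0.01, against -2.49 for BGN itself. The 9 of them with a mean over 7 had a median of -0.65. The 3 loci are near each other on chromosome X and share neighbours, and these counts stand beside 1392 lower genes of 18355 overall.

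Of 11 transcription factors and their inhibitors, 1 was higher and 2 lower. RELB, an NF-kB subunit of the alternative path, had 6.74, 6.78 and 6.76 in Cr_small, 6.79, 6.71 and 6.63 in Cr_large, 7.15, 7.20 and 7.12 in control and 6.56 in parental cells. It was 1.34-fold lower over the Cr lines (limma adjusted p = 0.00108). NFKB1, which encodes the p50 subunit, was 1.44-fold lower at the edge of the threshold (limma adjusted p = 0.049), and this call was lost when any of 7 lines was left out, Cr_small 1 or 2, Cr_large 2 or 3 or any control line, with adjusted p of 0.0589 to 0.176, and by the methods' t-test after Benjamini-Hochberg (0.0807). Of the 20 genes beside NFKB1, 7 were lower and 0 higher, and the 8 of them with a mean over 7 had a median difference of -0.53, against -0.52 for NFKB1. NFKBIB, an inhibitor that keeps NF-kB in the cytoplasm, was higher, with 8.33, 8.53 and 8.63 in Cr_small, 8.46, 8.46 and 8.19 in Cr_large, 7.67, 7.69 and 7.51 in control and 7.54 in parental cells. It was 1.76-fold higher over the Cr lines (limma adjusted p = 0.00148), with parental cells at the control level. NFKBIA, the inhibitor that NF-kB itself induces, had 8.55 to 9.37 in the Cr lines against 9.56 to 9.95 in control, and its difference of -0.78 did not pass (limma adjusted p = 0.0541). RELA, the main activating subunit, had a difference of 0.03 (limma adjusted p = 0.899).

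Of 17 negative regulators, 2 were lower and 0 higher. CYLD, a deubiquitinase that turns off TRAF signals, was 1.41-fold lower (limma adjusted p = 0.0237), and the RNase ZC3H12A was 1.24-fold lower (limma adjusted p = 0.0228). Both calls were lost without control line 1 (adjusted p of 0.098 for CYLD and 0.051 for ZC3H12A) or control line 3 (0.101 for CYLD and 0.097 for ZC3H12A), and that of ZC3H12A without control line 2 (0.0555). Of the 20 genes beside CYLD, 6 were lower and 0 higher, and the 8 of them with a mean over 7 had a median difference of -0.59. Beside SARM1, TAB3, RELB, NFKBIB, ZC3H12A, HSPD1, CXCL1, IL1A, IL1R1, IL1RAP, NLRP3 and CGAS, 0 to 4 of 20 were higher and 0 to 3 lower. IRAK3, an IRAK that blocks the path in macrophages, was at 4.54 to 4.74 in the 6 Cr lines, and at 4.58, 4.67 and 5.72 in control lines 1 to 3 and 5.11 in parental cells, so 1 control line stood apart.

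Host molecules described as TLR ligands gave 1 higher and 1 lower of 10. BGN, which has been described as a ligand of TLR2 and TLR4 in mouse macrophages, had 6.31, 6.14 and 6.14 in Cr_small, 6.26, 6.61 and 5.96 in Cr_large, 9.06, 8.38 and 8.73 in control and 7.17 in parental cells. It was 5.61-fold lower over the Cr lines (limma adjusted p = 0.000182), and the parental cells lay between the groups. The study had already listed BGN as lower in both Cr groups on these arrays, so this call is no independent test. HSPD1, a mitochondrial chaperone, was 1.29-fold higher in the Cr lines (limma adjusted p = 0.00226). TNC, which is both a ligand of TLR4 and one of the genes beside it, had 9.78, 9.57 and 10.04 in Cr_small, 8.73, 9.79 and 7.99 in Cr_large, 10.32, 9.94 and 10.50 in control and 9.80 in parental cells. The range among Cr_large lines was wide and the difference of -0.94 did not pass (limma adjusted p = 0.14).

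Of 21 genes that TLR signals are known to induce, 2 were lower and 0 higher. CXCL1, a neutrophil chemokine, had 6.54, 6.36 and 6.86 in Cr_small, 6.63, 6.59 and 5.95 in Cr_large, 7.19, 7.03 and 7.35 in control and 6.26 in parental cells. It was 1.63-fold lower over the Cr lines (limma adjusted p = 0.039), a call that was lost with the line number as a block (adjusted p = 0.0862) and without any of 5 lines, Cr_small 1, Cr_small 2 or any control line (adjusted p of 0.066 to 0.146), and by the methods' t-test after Benjamini-Hochberg (0.0786). IL1A passed with a difference of -0.33 (limma adjusted p = 0.0073), but it was under the background level in all groups, at 4.85 to 5.09 in the Cr lines, 5.27 to 5.35 in control and 4.79 in parental cells. CCL2, a monocyte chemokine, ranged from 6.40 to 8.67 in the Cr lines and from 8.16 to 9.08 in control, with a difference of -1.13 (limma adjusted p = 0.176). The cytokine gene IL6 had a difference of -0.27 (limma adjusted p = 0.364).

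**Figure D4:**
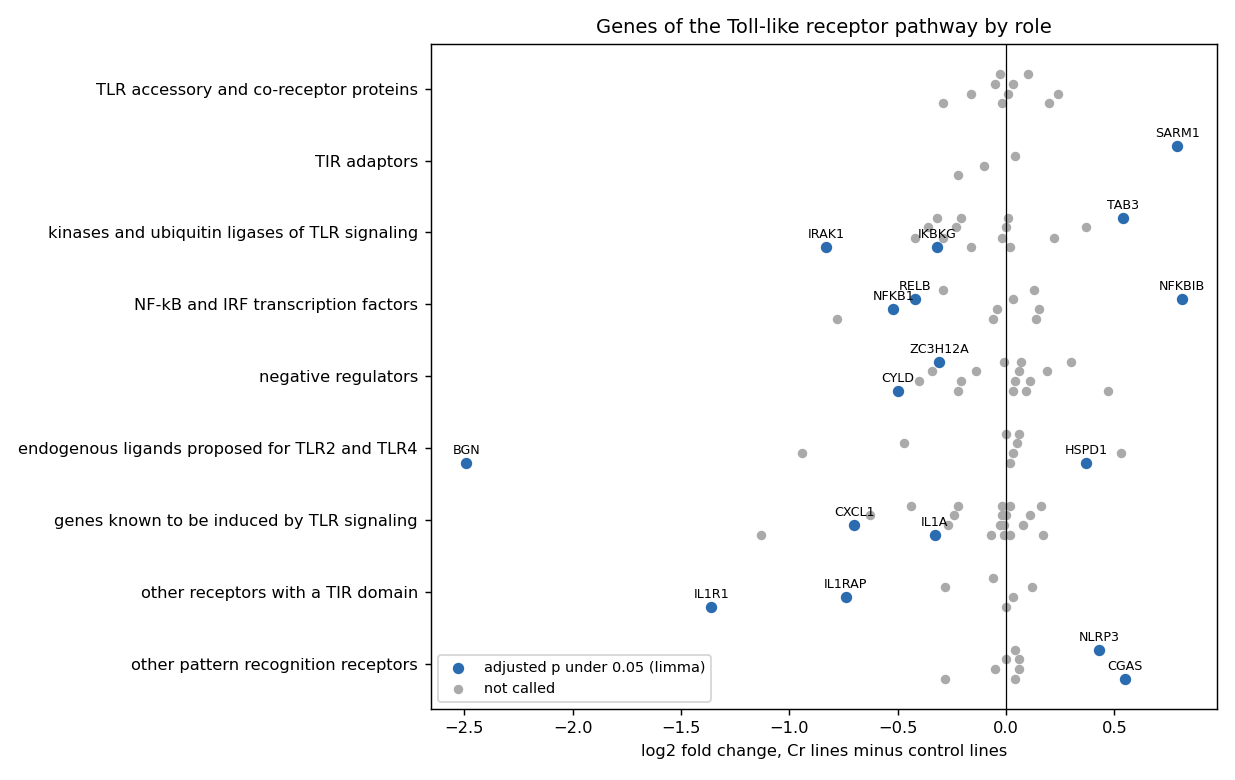
Log2 difference of Cr minus control lines for the measured TLR pathway genes, grouped by role (one point for each gene), with genes that passed limma's test at an adjusted p under 0.05 marked by colour and name. The points of most roles lay around 0, with BGN at -2.49 and IL1R1 at -1.36 the lowest of those that passed and NFKBIB at 0.81 the highest.

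The interleukin 1 receptors share the TIR domain and the MYD88 path with TLRs, and 2 of 7 were lower. IL1R1, the signaling receptor for interleukin 1, had 6.67, 6.08 and 6.83 in Cr_small, 6.79, 6.38 and 7.07 in Cr_large, 8.10, 7.69 and 8.20 in control and 6.10 in parental cells. It was 2.56-fold lower over the Cr lines (-1.36, SE 0.21, limma adjusted p = 0.00634). Its co-receptor IL1RAP had 7.95, 7.84 and 7.82 in Cr_small, 8.17, 8.02 and 7.84 in Cr_large, 8.66, 8.79 and 8.60 in control and 8.26 in parental cells, and was 1.67-fold lower (-0.74, SE 0.08, limma adjusted p = 0.00118). Both passed in each Cr group, and over the 6 Cr lines both calls held when any line was left out. The parental cells were at the level of the lowest Cr line for IL1R1 and between the groups for IL1RAP. Of the 20 genes beside IL1R1, 0 were lower and 4 higher.

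Sensors of other families gave 2 higher and 0 lower of 9. CGAS, the sensor of DNA in the cytoplasm, was 1.47-fold higher in the Cr lines (limma adjusted p = 0.0197), with 8.23 to 8.75 in the Cr lines against 7.69 to 7.96 in control. NLRP3, the inflammasome sensor, was 1.34-fold higher (limma adjusted p = 0.0131), with 5.77, 5.89 and 5.92 in Cr_small, 6.46, 6.14 and 6.21 in Cr_large and 5.54, 5.73 and 5.65 in control. NLRP3 passed in Cr_large (limma adjusted p = 0.00665) and not in Cr_small (limma adjusted p = 0.205), and the difference between these groups did not pass. The call of CGAS was lost without any 1 of the 3 control lines (adjusted p of 0.0518 to 0.0693), and that of NLRP3 without control line 1 or control line 3 (0.061 and 0.0539) and by the methods' t-test after Benjamini-Hochberg (0.159).

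The position of the parental array among these genes was counted last. Of the 11 pathway genes that were lower in the Cr lines than in control, 8 had a parental level at or below the highest Cr line (72.7%), among them IRAK1, RELB, CXCL1 and IL1R1, and 1 had a parental level at or above the lowest control line (9.09%). Of all 1652 clusters that were lower, 29.3% had a parental level at or below the highest Cr line and 44.7% at or above the lowest control line. Of the 6 pathway genes that were higher, 5 had a parental level at or below the highest control line and 0 at or above the lowest Cr line, against 698 and 465 of all 1538 clusters that were higher. TLR4, TLR3, BGN and IL1RAP lay between the groups. The 8 genes included IKBKG (parental 5.93, highest Cr line 5.94) and ZC3H12A (6.51 and 6.53), both by a small margin. They also included IL1A, which was under background in all groups. The calls of IKBKG, ZC3H12A, NFKB1 and CXCL1 were lost without some single lines, as given above. These counts rest on 1 parental array and carry no test.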

How the data were processed

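Affymetrix Human Gene 1.0 ST arrays of 10 cell lines were used. The deposited values are linear intensities, which the authors made with RMA16 and quantile normalization in GeneSpring, and their log2 was taken here. Clusters were named by the annotation of the array through RefSeq symbols (GRCh38.p14). Of 28869 clusters, 19310 had 1 symbol, 1752 several and 7807 none here, and the cluster with the highest mean stood for a gene. Groups came from the array titles and cell type labels.

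A mean for each of 4 groups was fitted over all clusters with limma 3.58.1 in R 4.3.3 (6 residual and 1.96 prior degrees of freedom), and the Benjamini-Hochberg adjustment covered every cluster, with 0.05 as the threshold. The number of arrays limits the precision. The steps were tested on simulated data, and Python 3.11.15 with matplotlib 3.10.9 made the plots.

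The members and gene lists were chosen with earlier results of these data known. The genes named are the members, list genes that passed with at least a 1.5-fold difference, all adaptors, up to 4 further genes of each list with the highest means, and the 5 genes most like any member whose group means span at least 1. LY96, IKBKG, TAB3, RELB, ZC3H12A, IRAK3, IL1A, IL6, NLRP3, PTPRC, TYROBP, KRT5, KRT19, EPCAM, CDH1 and the genes beside the loci were named after their values were seen.

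The alternatives were a trend with robust moderation in limma, the methods' t-test (without and with Benjamini-Hochberg), only the groups compared in the fit, no clusters of the dimmest 25%, clusters with exactly 1 symbol, quantile or median normalization again, averaging a gene's clusters, the line number as a replicate block, and leaving out each line in turn. Background was also set at the 90th percentile of the olfactory receptor clusters, the median of all clusters, or the taste receptor clusters. Taking off the constant of RMA16 was added after seeing the data. Line numbers did not pair the samples: over 9 pairs of same-numbered lines the correlation of residuals ranged from -0.145 to 0.0984.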

Additional observations from a re-analysis of the deposited data

How the results depend on the processing

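The number of TLR members other than TLR4 that passed in the Cr lines against control was 1 under 10 alternatives and with any line left out (1 to 1), and 3 by the methods' t-test with no adjustment (TLR1, TLR2 and TLR3). In Cr_small it was 2 by that t-test, 0 after Benjamini-Hochberg and 1 to 1 with a line left out. In Cr_large it was 4 by that t-test, 0 after Benjamini-Hochberg, 0 with only the groups compared in the fit and 0 to 1 with a line left out. In Cr_large against Cr_small it was 0 under all alternatives. The 17 pathway genes became 31 by the unadjusted t-test (12 higher and 19 lower) and 9 to 18 with a line left out. The shares of all genes under these settings are not given. Under the replicate block the counts were 1, 1 and 1 of the members and 17 of the pathway genes, and the block ended no other call named here than that of CXCL1. Members above background were 2 against taste receptor clusters, and 3 to 4 with a line left out. The log2 difference of TLR4 between Cr lines and control lay between -3.18 and -2.69, and was -3.14 with the constant of RMA16 taken off, which was chosen after seeing the data. No result reversed. Except where a value shows it, the cause of a change was not tested. There was 1 parental array and 3 lines a group, and genes near background carry compressed folds.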
